A study of Homo sapiens with 6 samples.

Results

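The 10 genes described here encode the core of the NF-kB pathway: the subunits NFKB1, NFKB2, REL, RELA and RELB, the inhibitors NFKBIA, NFKBIE and TNFAIP3, and the kinases IKBKB and CHUK. They were chosen by name, with earlier results of these data known. Every probe set whose array annotation names 1 of them alone was taken, which gave 17 of the 22283 probe sets on the array. On this array 11963 genes had a probe set of their own, so that the family makes up 10 of them. The RNA came from the long-established human breast cancer line MDA-MB-231. Cells had been electroporated with an siRNA against parathyroid hormone-related protein (siPTHrP), a secreted peptide through which breast tumours in bone promote bone loss, or with a control siRNA against luciferase (siLuc). They were collected 3 days later in 3 independent experiments, with 1 array per RNA and thus 3 arrays per group. Both groups had thus been electroporated with an siRNA, and cells without siRNA were not analysed here. The siPTHrP and siLuc arrays of the same experiment were compared, to find genes that respond to the loss of PTHrP. The target transcript itself was not analysed here, so the labels were not checked against the knockdown.

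NF-kB is a family of transcription factors that bind DNA as dimers. In resting cells the dimers are held in the cytoplasm by IkB proteins. Receptors for inflammatory cytokines activate the IkB kinase complex, which marks IkB proteins for destruction and frees the dimers to enter the nucleus, and the genes switched on there include those of the pathway's own inhibitors. In MDA-MB-231 and other breast cancer cells of its kind the pathway is known to be active without added cytokines.

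Several genes of the family carry NF-kB binding sites in front of their own start, and these sequences are shown because they link the subunits to the inhibitors. The motif GGGA, any 2 bases and TTCC, 10 bases in all, was searched on both strands of the 250 bases before each RefSeq start (GRCh38.p14). Windows of 7 of the 10 genes were counted, with 11 starts in all, and 5 of the 11 windows had a match, 1 in each of 5 genes. RELB, NFKBIE and IKBKB were not part of this count, so nothing is said of their starts. Among all 35116 windows of this length 1.4% had one. The letters were chosen after promoters had been read, so the difference between these shares is no finding, and a match is a description of the sequence. The matching stretch is in capitals and is written on the strand of the gene, so that the motif lies on the other strand in NFKBIA and TNFAIP3 and on both strands, in overlapping matches, in REL. Its first base lies 49 bases before 1 of the 2 starts of NFKB1, 21 before 1 of the 3 of NFKB2, 47 in REL, 81 in NFKBIA and 67 in TNFAIP3.
NFKB1, chr4:102501290-102501339, plus strand: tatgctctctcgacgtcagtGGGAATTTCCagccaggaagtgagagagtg
NFKB2, chr10:102395674-102395703, plus strand: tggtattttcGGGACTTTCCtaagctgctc
REL, chr2:60881507-60881557, plus strand: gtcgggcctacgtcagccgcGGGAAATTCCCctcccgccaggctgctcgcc
NFKBIA, chr14:35404801-35404850, minus strand: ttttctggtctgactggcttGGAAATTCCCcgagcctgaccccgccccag
TNFAIP3, chr6:137867172-137867221, plus strand: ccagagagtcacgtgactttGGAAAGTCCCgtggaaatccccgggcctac
No match was held by the windows of RELA and CHUK, by that of the other start of NFKB1 or by those of the other 2 starts of NFKB2.

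One array, siLuc of experiment 1, differed from the other 5. Its label carries no experiment number, and it was placed in experiment 1 because the titles of the other siLuc arrays give 2 and 3. The siLuc array titled 3 is described as 2 and was taken as experiment 3. The rank correlation of the siLuc array of experiment 1 with the other 5 was 0.718 to 0.727 across probe sets. Those 5 correlated at 0.883 to 0.96 with each other. On the siLuc array of experiment 1 the 18 spiked hybridisation controls had a geometric mean signal of 273100, against 10840 to 41430 on the other arrays. Its 12 control probe sets for ribosomal RNA gave 84970, against 1295 to 15330. Of its values 90.1% carried decimals, against 0% on the other 5, and its median signal was 887.2, against 559 to 659. Whether it had been processed differently was not tested. Among the markers of this cell line, 6 of 6 (such as VIM and CD44) were above the signal filter described next, with a summed signal of 212623.6 to 242741 with siLuc and 199298 to 256852 with siPTHrP. Of the 6 luminal epithelial markers 3 were above it (ESR1, GATA3 and KRT19). Of 3 measured leukocyte markers 1 was above it (CD3E), with PTPRC and CD14 below it. Their summed signal was 925 to 2730.9 with siLuc and 793 to 1123 with siPTHrP. The 4 markers of fibroblasts and endothelium summed to 4557 to 6206.3 with siLuc and 2513 to 4021 with siPTHrP, and these sums did not overlap. Taken singly, PECAM1 did not overlap (2013, 1056 and 1460 with siLuc, 791, 419 and 481 with siPTHrP), whereas COL1A1, COL3A1 and CDH5 did. Groups did not overlap for 18.6% of all tested probe sets. Of these markers COL1A1 and PECAM1 were above the filter and CDH5 and COL3A1 below it. The part of these markers and controls in the results below was not tested.

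Signals are the authors' MAS5 intensities, which have no unit and are scaled to a common mean on each array. They compare arrays for 1 probe set but not 1 probe set with another. Probe sets were tested where the mean of log2(signal + 16) over the 6 arrays reached 8.614, a signal of about 376, which left 13329 probe sets. Of the 17 probe sets 11 passed, for 8 of the 10 genes. The 6 below it were both probe sets of REL, the single one of CHUK, 2 of the 3 of IKBKB and 1 of the 3 of NFKB2. In limma with the experiment as a block, 0 of the 11 had a Benjamini-Hochberg adjusted p under 0.05, as did 0 (0%) of all 13329, and their adjusted p-values lay between 0.456 and 0.98. At an unadjusted p under 0.05 there were 0 of the 11, against 12.1% of all probe sets. Of the 11, 6 were above 0 and 5 below (52.5% of all probe sets were above 0), with a median log2 fold change of 0.017 (siPTHrP over siLuc) beside 0.030 for all 13329. The groups did not overlap for 2 of the 11, or 18.2%, beside 18.6% of all probe sets. These 2 were NFKB1 and IKBKB 209342_s_at. The latter passed the filter through its siLuc signals, which favours lower values with siPTHrP. With all 6 arrays these shares were thus near the background or below it. Without the siLuc array of experiment 1 the groups did not overlap for 4 of the 11, or 36.4%, beside 30.9% of all probe sets. These 4 were NFKB1, both probe sets of RELA and IKBKB 209342_s_at, each lower with siPTHrP, as were 17.1% of all probe sets. In that setting, with no block, 2 of the 11 had an unadjusted p under 0.05 in limma (18.2%, beside 12.6% of all), NFKB1 and RELA 209878_s_at, both lower. Array weights gave the same 2 probe sets, beside 17.4% of all. Both arrays of an experiment had the same weight (0.386, 2.232 and 1.161 in experiments 1, 2 and 3). This fit thus did not set the siLuc array of experiment 1 apart. Leaving out experiment 1 gave RELA 209878_s_at, lower (9.09%, beside 13.9% of all). Leaving out experiment 2 or 3 gave TNFAIP3 202644_s_at, higher (9.09%, beside 9.95% and 12%). With an offset of 64 CHUK passed the filter and was higher (8.33%, beside 12.5%).

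**Figure D1:**
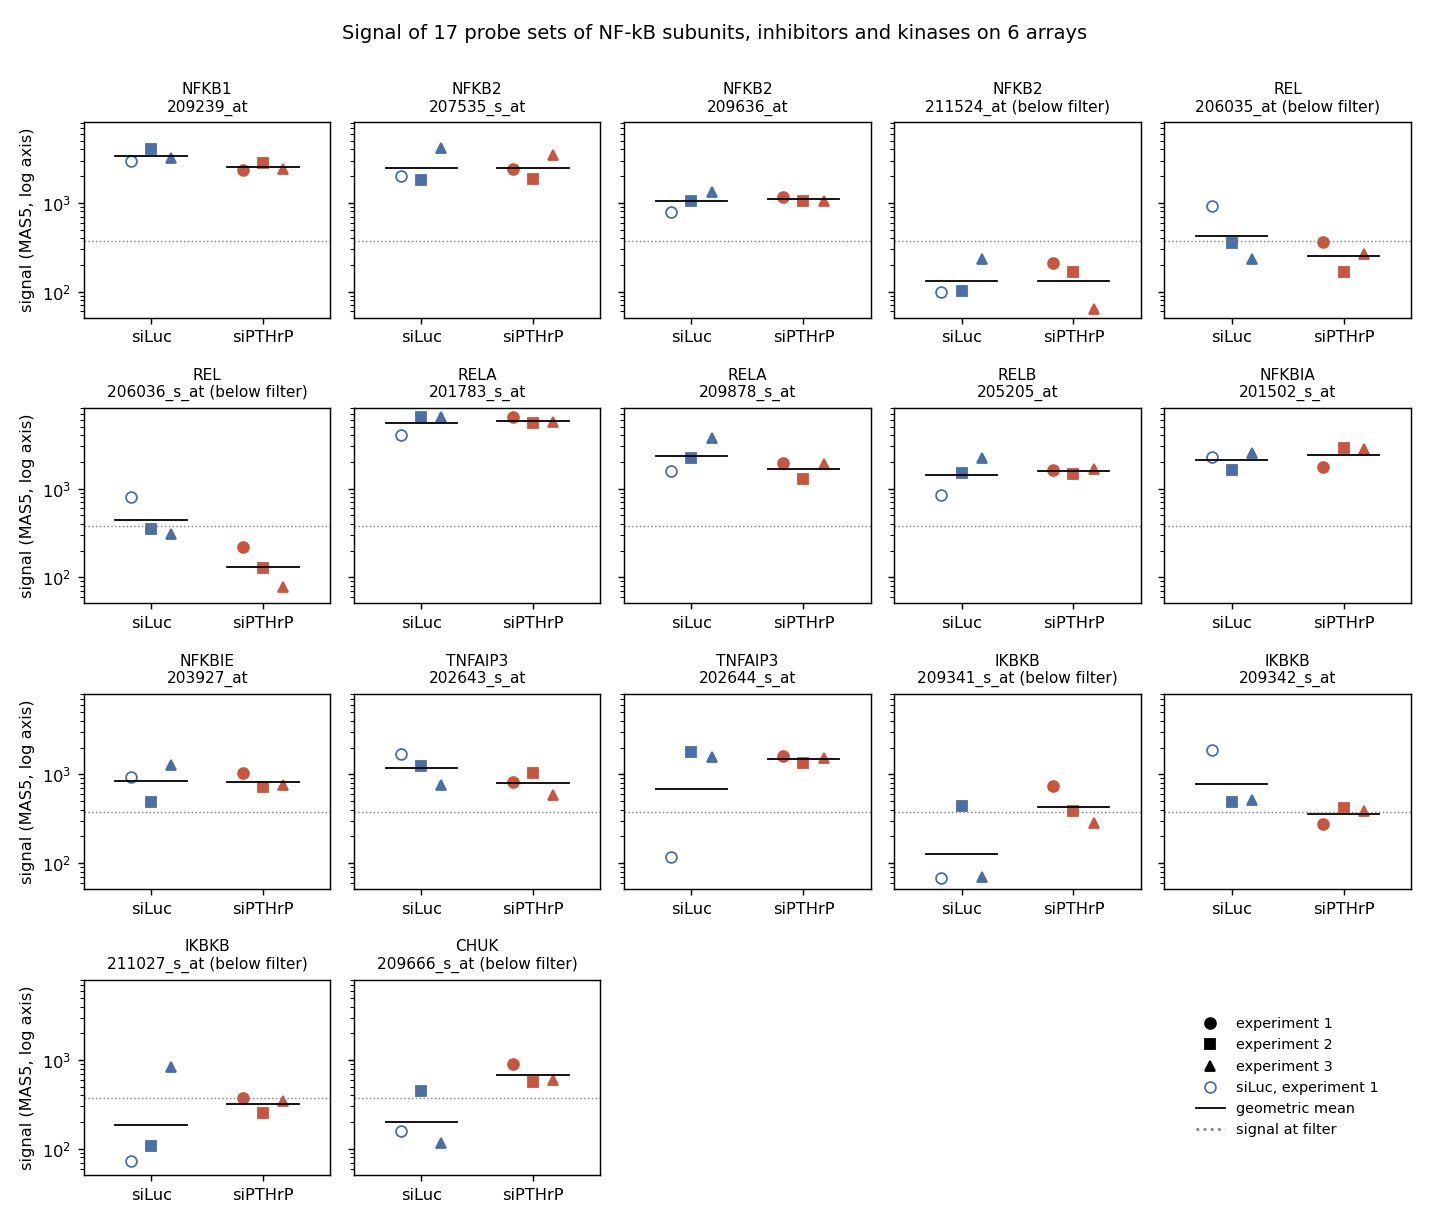
Signal of each of the 17 probe sets on the 6 arrays (log axis), with siLuc in blue and siPTHrP in red, the symbol giving the experiment, the open circle the siLuc array of experiment 1, the bar the geometric mean of a group and the dotted line the signal of about 376 used as a filter. NFKB1, 1 probe set each of REL and IKBKB, and CHUK have groups that do not overlap, and in TNFAIP3 202644_s_at the open circle lies at 117.6, far below the other 5 arrays.

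Of the 5 subunit genes, NFKB1 had the smallest spread of differences among the experiments. NFKB1 is made as a precursor, p105, that is processed to the DNA-binding subunit p50. Its probe set 209239_at had signals of 2936.8, 4005 and 3186 with siLuc and 2364, 2794 and 2427 with siPTHrP in experiments 1, 2 and 3. Each siPTHrP array lay below each siLuc array. The log2 difference was -0.311, -0.517 and -0.390 and so below 0 in 3 of 3 experiments. The mean signal was 3376 ± 559 with siLuc and 2528 ± 232 with siPTHrP (SD, n = 3). The fitted estimate was 0.755-fold, a log2 fold change of -0.41 (SE 0.21, 95% interval -0.89 to 0.076, limma adjusted p = 0.456). The difference did not pass the threshold. Leaving out 1 array, siLuc of experiment 1, and the block gave -0.50 (limma adjusted p = 0.383). After centring each array on its median it was -0.080, where the median of all 13329 probe sets stood at 0.356.

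NFKB2 encodes the precursor p100, which restrains RELB dimers until it is processed to p52. Its probe set 207535_s_at had 1997.2, 1814 and 4133 with siLuc and 2412, 1856 and 3469 with siPTHrP. The signal was highest in experiment 3 in both groups, and the groups overlapped. The fitted log2 fold change was 0.017 (SE 0.24, 95% interval -0.52 to 0.55). The second, 209636_at, had 795.3, 1058 and 1324 with siLuc and 1171, 1050 and 1061 with siPTHrP, with a log2 fold change of 0.074 (SE 0.37). On both the estimate turned below 0 without experiment 1, to -0.11 and -0.16. The third, 211524_at, lay below the filter, with signals from 64 to 234 over the 6 arrays.

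REL encodes c-Rel, a subunit best known from lymphocytes, and both of its probe sets were dim. On 206036_s_at the signals were 803.0, 347 and 305 with siLuc and 221, 128 and 78 with siPTHrP. Every siPTHrP array lay below every siLuc array, with log2 differences of -1.789, -1.334 and -1.772. In a fit of all 22215 probe sets with no filter the log2 fold change was -1.63 (SE 0.73, 95% interval -3.25 to -0.012, unadjusted p = 0.0486, limma adjusted p = 0.437). Without experiment 1 it was -1.55 (limma adjusted p = 0.509). The other probe set, 206035_at, had 920.7, 357 and 232 with siLuc and 363, 167 and 262 with siPTHrP. There the groups overlapped, the sign differed in experiment 3 (log2 difference 0.165), and the estimate was -0.72 (SE 0.70, limma adjusted p = 0.662). The siLuc array of experiment 1 was the highest of 6 on both probe sets, at 3.51 and 3.63 times the median of the other 5 on 206035_at and 206036_s_at.

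RELA encodes p65, which carries a transactivation domain and pairs with p50 in the classical dimer. On 201783_s_at it had 4049.8, 6375 and 6411 with siLuc and 6352, 5493 and 5627 with siPTHrP. The siLuc array of experiment 1 was the lowest of 6, and the other 2 siLuc arrays were the highest. The log2 difference was 0.647, -0.214 and -0.188, so that experiment 1 opposed the other 2, and the estimate was 0.082 (SE 0.22, 95% interval -0.41 to 0.57, limma adjusted p = 0.887). It became -0.20 without experiment 1 (limma adjusted p = 0.682).

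The other probe set of RELA, 209878_s_at, had 1568.5, 2220 and 3672 with siLuc and 1944, 1277 and 1898 with siPTHrP. Its log2 difference was 0.307, -0.790 and -0.946, again with experiment 1 on the other side of 0. The estimate was -0.48 over all arrays (SE 0.31, limma adjusted p = 0.521) and -0.87 without experiment 1 (SE 0.24, unadjusted p = 0.00258, limma adjusted p = 0.131). This was the smallest unadjusted p of any of the 11 tested probe sets in any of the 13 alternatives, and it did not pass after adjustment. In experiments 2 and 3 both RELA probe sets were thus lower with siPTHrP, by unequal amounts.

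RELB, the partner of p52 in the alternative arm of the pathway, had 851.8, 1514 and 2187 with siLuc and 1631, 1443 and 1669 with siPTHrP on 205205_at. The siPTHrP values lay close together, at 1581 ± 121, and the siLuc values spread over 1518 ± 668 (SD, n = 3). The log2 difference was 0.924, -0.069 and -0.387, and the estimate was 0.16 (SE 0.34, limma adjusted p = 0.861). Without experiment 1 it was -0.23 (limma adjusted p = 0.758).

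**Figure D2:**
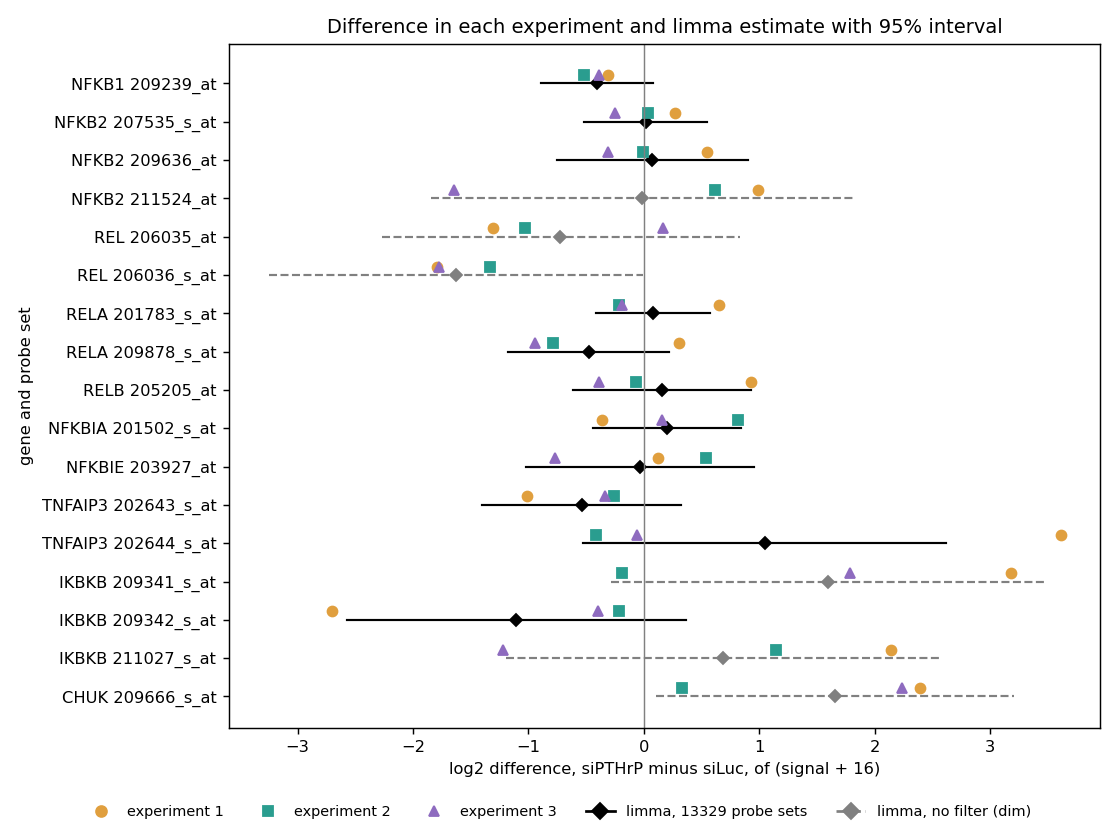
Log2 difference of signal + 16 between siPTHrP and siLuc in each experiment (coloured symbols) and the limma estimate with its 95% interval (diamond and line), for 17 probe sets; grey dashed lines are probe sets below the filter, fitted with no filter. Differences of NFKB1 lie between -0.517 and -0.311, whereas those of TNFAIP3 202644_s_at run from -0.412 to 3.611 and those of IKBKB 209342_s_at from -2.705 to -0.212.

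NFKBIA encodes IkB alpha, the inhibitor that is degraded and made anew in each round of signalling, and it is a classical NF-kB target gene. Its probe set 201502_s_at had 2254.7, 1604 and 2534 with siLuc and 1745, 2834 and 2821 with siPTHrP. The signal was lower with siPTHrP in experiment 1 (log2 difference -0.367) and higher in experiments 2 and 3 (0.815 and 0.154). The mean went from 2131 ± 477 to 2467 ± 625 (SD, n = 3). The fitted estimate was 1.15-fold, a log2 fold change of 0.20 (SE 0.28, 95% interval -0.44 to 0.84, limma adjusted p = 0.772). The groups overlapped, and without experiment 2 the estimate was -0.11.

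NFKBIE encodes IkB epsilon, a further inhibitor that holds dimers in the cytoplasm. On 203927_at the signals were 943.5, 494 and 1290 with siLuc and 1030, 723 and 751 with siPTHrP. The highest and the lowest of the 6 were both siLuc arrays. The estimate was -0.036, with a 95% interval from -1.02 to 0.95 (SE 0.44, limma adjusted p = 0.978), so that these arrays could not resolve differences within those bounds.

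TNFAIP3 encodes A20, a ubiquitin-editing enzyme that shuts off signalling upstream of the kinases and is itself an NF-kB target. Its 2 probe sets pointed in opposite directions. On 202644_s_at the signals were 117.6, 1776 and 1579 with siLuc and 1616, 1331 and 1517 with siPTHrP. The siLuc array of experiment 1 stood at 0.0745 of the median of the other 5, which ranged from 1331 to 1776. The 2.07-fold estimate (log2 fold change 1.05, SE 0.70, limma adjusted p = 0.528) rested on that array: experiment 1 gave a log2 difference of 3.611, and experiments 2 and 3 gave -0.412 and -0.057. Without experiment 1 the estimate was -0.23 (SE 0.28, limma adjusted p = 0.761), and without that array alone and with no block it was -0.17 (limma adjusted p = 0.77).

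On the other probe set of TNFAIP3, 202643_s_at, the same array was the highest of 6. The signals there were 1685.3, 1253 and 750 with siLuc and 825, 1045 and 589 with siPTHrP, lower in 3 of 3 experiments (log2 differences -1.016, -0.258 and -0.340). The groups overlapped and the estimate was -0.54 (SE 0.38, 95% interval -1.40 to 0.33, limma adjusted p = 0.551). Without experiment 1 it was -0.30 (limma adjusted p = 0.771). In experiments 2 and 3, then, both probe sets of TNFAIP3 were lower with siPTHrP, and neither passed the threshold.

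IKBKB, or IKK beta, phosphorylates IkB proteins in the classical arm. Its tested probe set, 209342_s_at, had 1894.5, 490 and 511 with siLuc and 277, 421 and 384 with siPTHrP. Each siPTHrP array lay below each siLuc array, and the siLuc array of experiment 1 stood at 4.5 times the median of the other 5. The siPTHrP mean of 360.7 was under the filter signal of about 376, so the probe set passed through its siLuc signals. This favours lower values with siPTHrP, and the lack of overlap is only a description. Experiment 1 gave a log2 difference of -2.705, and experiments 2 and 3 gave -0.212 and -0.398. The mean went from 965.2 ± 805 to 360.7 ± 74.8 (SD, n = 3), and the fitted estimate was 0.465-fold (log2 fold change -1.10, SE 0.65, 95% interval -2.57 to 0.36, limma adjusted p = 0.492). Without experiment 1 the estimate was -0.30 (SE 0.60, limma adjusted p = 0.867).

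The other probe sets of IKBKB were below the filter and had the opposite sign. On 209341_s_at the signals were 67.7, 439 and 70 with siLuc and 740, 384 and 280 with siPTHrP. On 211027_s_at they were 72.8, 107 and 832 and then 376, 255 and 347. The siLuc array of experiment 1 was the lowest of 6 on both, although it was the highest on 209342_s_at. With no filter the estimates were 1.59 (SE 0.84, limma adjusted p = 0.477) and 0.69 (SE 0.85, limma adjusted p = 0.736). The 3 probe sets of IKBKB thus gave no common direction.

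CHUK, or IKK alpha, is the kinase of the alternative arm and acts on p100. Its single probe set, 209666_s_at, had 160.6, 447 and 116 with siLuc and 908, 567 and 604 with siPTHrP. Each siPTHrP array lay above each siLuc array, and 2 of the siLuc values were far under the filter. Its mean of log2(signal + 16) was 8.613, just below the filter at 8.614, so that it was not among the 13329 tested. The log2 difference was 2.387, 0.332 and 2.232, higher in 3 of 3 experiments. With no filter the log2 fold change was 1.65 (SE 0.70, 95% interval 0.10 to 3.20, unadjusted p = 0.039, limma adjusted p = 0.428), or 3.14-fold. Its estimate stayed between 1.13 and 2.31 over 11 alternatives with no filter, and the adjusted p between 0.374 and 0.627. Without experiment 1 it was 1.28 (limma adjusted p = 0.539), and 1.49 when the siLuc array of that experiment and the block were left out (limma adjusted p = 0.459).

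**Figure D3:**
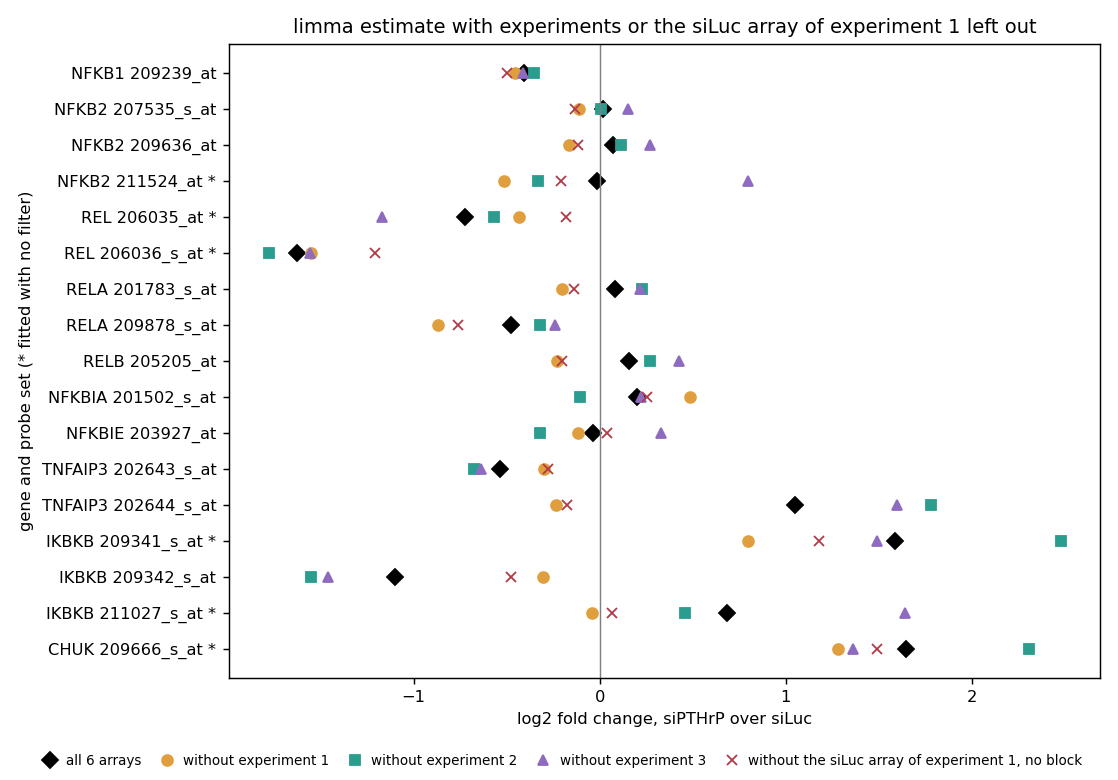
Limma estimate of the log2 fold change (siPTHrP over siLuc) for 17 probe sets with all 6 arrays (black), without 1 experiment in turn (coloured), and with no block and no siLuc array of experiment 1 (crosses); an asterisk marks probe sets fitted with no filter. TNFAIP3 202644_s_at moves from 1.05 to -0.23 without experiment 1, while NFKB1 stays between -0.50 and -0.35 in these fits and CHUK stays above 1.

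Over all 17 probe sets the groups did not overlap for 4, or 23.5%: NFKB1, REL 206036_s_at and IKBKB 209342_s_at were lower with siPTHrP and CHUK higher. Among all 22215 probe sets without a filter 18.8% did not overlap, 12.6% lower and 6.2% higher. Without the siLuc array of experiment 1 there were 6 of 17, or 35.3%, beside 29.4% of all 22215, the other 2 being the probe sets of RELA. At an unadjusted p under 0.05 there were 2 of 17, or 11.8%, beside 11.3% of all 22215. The same sign in 3 of 3 experiments was seen for 5 of 17, beside 38.3% of all. The siLuc array of experiment 1 was the highest of 6 for 4 and the lowest for 6 of the 17, together 58.8%, beside 61.8% of all 22215 probe sets. The log2 spread (SD) was larger among siLuc than among siPTHrP arrays for 10 of the 11 tested probe sets, and for 73.3% of all 13329. Since RNA of whole cultures was measured, fewer cells with a transcript and less of it per cell cannot be told apart.

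**Figure D4:**
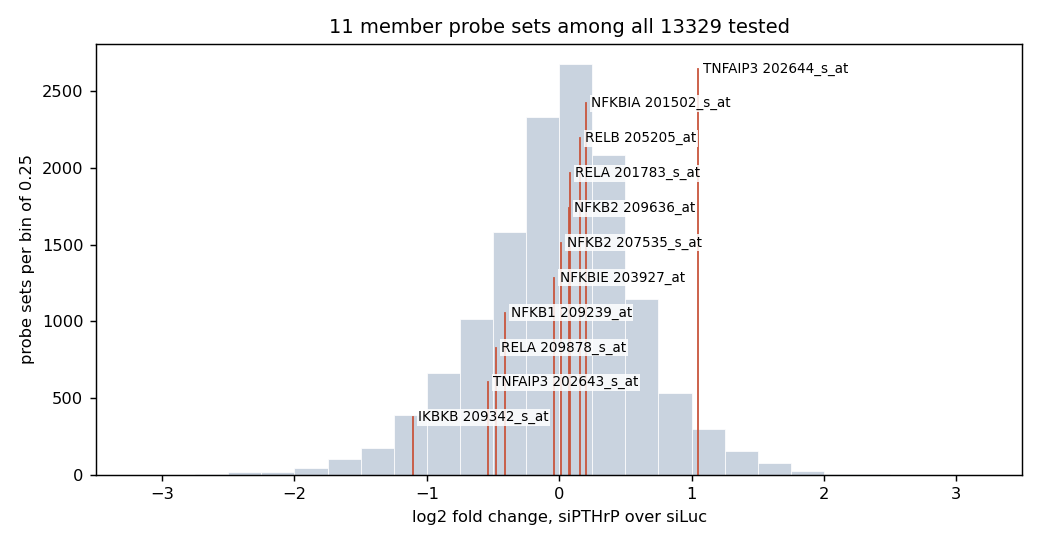
Number of probe sets per bin of log2 fold change (siPTHrP over siLuc) for all 13329 tested, with the 11 probe sets of the family marked as red lines. Those run from -1.10 (IKBKB) to 1.05 (TNFAIP3 202644_s_at) and have a median of 0.017, beside 0.030 for all.

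Other parts of the pathway were read from lists of textbook genes, with the brightest tested probe set of each gene. The lists were made with earlier results of these data known. Their shares count 1 probe set per gene, whereas the shares beside them count all probe sets, so differences between them are only descriptions. Of 26 further regulators of IKK and IkB 19 were tested, and 0 passed the adjusted threshold in either direction. At an unadjusted p under 0.05 there were 5 of 19, or 26.3%, beside 12.1% of all probe sets: RBCK1, UBE2N and RBX1 higher with siPTHrP, IKBKE and MAP3K7 lower. RBX1 and MAP3K7 are named here after their values had been seen. The list median was 0.145, beside 0.030 for all. RBCK1, a subunit of the complex that builds linear ubiquitin chains in this pathway, had 7970, 7311 and 11956 with siLuc and 17720, 13656 and 17347 with siPTHrP. All 3 siPTHrP arrays were above all siLuc arrays, at 1.82-fold (log2 fold change 0.86, SE 0.18, limma adjusted p = 0.29), and its other probe set gave 1.98-fold. IKBKE, an inducible kinase related to the IKKs, had 2612.1, 1464 and 1258 with siLuc and 788, 815 and 867 with siPTHrP. The siPTHrP arrays were all lower, at 0.492-fold (log2 fold change -1.02, SE 0.36, limma adjusted p = 0.377), and its other probe set gave 0.544-fold. UBE2N, which makes ubiquitin chains used in signalling to the IKK kinases, stood at 1.4-fold (limma adjusted p = 0.393), and its other tested probe sets at 1.18-fold and 1.2-fold.

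Of 32 receptors, ligands and adaptors upstream of the kinases 19 were tested, with 10 above 0 and 9 below. Their median log2 fold change was 0.023, beside 0.030 for all. None passed the adjusted threshold in limma. At an unadjusted p under 0.05 there was 1 of 19 (5.26%), beside 12.1% of all probe sets. This was TNFRSF12A, higher with siPTHrP, a TNF receptor family member that can activate NF-kB. It had 5111.4, 7468 and 8264 with siLuc and 20052, 17846 and 11973 with siPTHrP, with no overlap (limma adjusted p = 0.287). TRADD, the adaptor of the TNF receptor, stood at 1.66-fold and 1.87-fold on its tested probe sets. TNFSF11, which encodes the osteoclast-inducing ligand RANKL, had 2271.1, 463 and 311 with siLuc and 204, 110 and 355 with siPTHrP. Its siPTHrP signals were all under the filter signal of about 376, so this probe set passed through its siLuc signals. The groups overlapped, and the other probe set of TNFSF11, below the filter, stood at 1.13-fold instead of 0.306-fold.

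Of 28 known target genes, which include NFKBIA and TNFAIP3, 20 were tested. There were 11 above 0 and 9 below, with a median of 0.046, beside 0.030 for all. None passed the adjusted threshold in limma, with 2 higher and 0 lower at an unadjusted p under 0.05, or 10%, beside 12.1% of all probe sets. The groups did not overlap for 5 of the 20, or 25%, beside 18.6% of all, with PLAU higher and VCAM1, MMP9, CCL5 and CD83 lower. The last 3 are named after their values had been seen. VCAM1 and CCL5 passed the filter through their siLuc signals, since their siPTHrP signals averaged below it. This favours lower values with siPTHrP, so their lack of overlap is only a description. PLAU, the urokinase, had 3697.3, 5159 and 5033 with siLuc and 7572, 7287 and 6523 with siPTHrP, at 1.55-fold (limma adjusted p = 0.347), and its other tested probe set stood at 1.22-fold. The cytokine LIF stood at 1.89-fold with overlapping groups (limma adjusted p = 0.379). VCAM1, a vascular adhesion molecule induced by NF-kB, had 923.1, 685 and 646 with siLuc and 263, 262 and 374 with siPTHrP, or 0.411-fold (limma adjusted p = 0.42). TNFAIP3, ICAM1 and IRF1 were above 0 through experiment 1 alone (log2 differences 3.611, 2.473 and 1.095). They were lower with siPTHrP in experiments 2 and 3, and the siLuc array of experiment 1 was the lowest for each. The count of 11 above 0 rested in part on that array. PLAU, BCL2L1 and CFLAR were higher in every experiment, and VCAM1, MMP9, TRAF1, CCL5 and CD83 lower, CCL5 by only -0.007 in experiment 2. The same sign in 3 of 3 experiments was seen for 38.3% of all 22215 probe sets with no filter, so such agreement was common across the array. ICAM1, IRF1, BCL2L1, CFLAR and TRAF1 are named after their values had been seen. Target genes thus lay on both sides of 0, as the subunits and inhibitors did.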

How the data were processed

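Total RNA of 6 MDA-MB-231 samples (3 siPTHrP, 3 siLuc) was hybridised to Affymetrix arrays, 1 per RNA. The deposited values were linear signal intensities made with MAS5, per the submitters' processing notes, which give no version or settings here. The mean after trimming 2% at each end was 1500.4 to 1500.6 on all arrays, so this scaling was kept. MAS5 subtracts mismatch signal, which makes dim probe sets noisy. Detection calls and the siRNA's target transcript were not used here.

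Groups follow titles and descriptions. The unnumbered siLuc sample was taken as experiment 1 by elimination, and the one titled 3 but described as 2 as experiment 3. The design text pairs RNAs by experiment, so the experiment was a block. Deviations from group means of same-experiment arrays correlated at -0.012, 0.157 and 0.157, and of other arrays at -0.206 to 0.132. That the experiments were independent is the design text's statement.

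In R 4.3.3 with limma 3.58.1, log2(intensity + 16) was fitted by lmFit, followed by eBayes along an intensity trend (2 residual and 7.17 prior degrees of freedom). The 68 controls and probe sets below the 40th percentile of mean signal were left out. P-values are two-sided, adjusted by Benjamini-Hochberg over 13329 probe sets, with a threshold of 0.05. Gene names came from the platform's annotation (19071 with 1 gene, 1043 with several, 2169 with none), updated through Entrez identifiers to GRCh38.p14 names for 19059. Promoter sequences are RefSeq's. The fit was run on simulated data with equal, independent noise on all arrays, and the added differences were recovered on average. No simulated array differed from the rest, so this run could not show how the fit treats such an array. All member probe sets are reported, and up to 3 genes of each other list with the smallest p are named. Members and lists were chosen with earlier results of these data known. Alternatives were quantile normalization, median centring, offsets of 1 and 64, other filters, no block, no trend, array weights, leaving out each experiment, and leaving out the siLuc array of experiment 1 with no block. The fits of dim probe sets with no filter, and the count of non-overlapping groups without that array, were added after the data had been seen.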

Additional observations from a re-analysis of the deposited data

How the results depend on the processing

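The count of 0 family probe sets past the adjusted threshold held in all 13 alternatives, with no replicate block included (0 of 11 there, and 0 of all 13329). Over all probe sets the count was also 0 in most, but 177 passed with array weights and 38 to 175 when 1 experiment was left out (38, 46 and 175 without experiments 1, 2 and 3). Median centring moved the median of all probe sets from 0.030 to 0.356 and quantile normalization to 0.094. Log2 fold changes of NFKB1, RELA 209878_s_at, TNFAIP3 202643_s_at, IKBKB 209342_s_at and, with no filter, REL, IKBKB 209341_s_at and CHUK kept their sign in every alternative in which they were fitted. IKBKB 209342_s_at and NFKBIE could not be fitted with the filter at the 60th percentile. Others changed sign. NFKB2 207535_s_at was -0.030 with array weights, -0.13 without the siLuc array of experiment 1 and -0.11 to 0.15 when 1 experiment was left out. In the same settings NFKB2 209636_at was -0.047, -0.11 and -0.16 to 0.27, RELB -0.065, -0.20 and -0.23 to 0.43, and RELA 201783_s_at -0.12, -0.14 and -0.20 to 0.23, and -0.027 with quantile normalization. TNFAIP3 202644_s_at was -0.17 without that siLuc array and -0.23 to 1.78 without 1 experiment, and NFKBIA -0.11 to 0.48. NFKBIE was 0.23 with quantile normalization, 0.29 with median centring, 0.093 with array weights, 0.042 without the siLuc array and -0.32 to 0.33 without 1 experiment. With no filter, IKBKB 211027_s_at was -0.042 to 1.64 without 1 experiment. NFKB2 211524_at was 0.00044 with an offset of 64, 0.47 with quantile normalization, 0.31 with median centring and -0.51 to 0.80 without 1 experiment. Beyond the arrays left out, the cause was not tested. Low signal over background limits REL, CHUK, 2 probe sets of IKBKB, 1 of NFKB2 and, with siPTHrP, IKBKB 209342_s_at, and the number of arrays limits all. With 3 pairs and 95% intervals as wide as 3.14 on the log2 scale among tested probe sets, changes of a log2 of 1 could be missed.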
